A study of Mus musculus with 2 samples.

Results

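The 39 Hox genes of the mouse, all of the features named *Hoxa*, *Hoxb*, *Hoxc* or *Hoxd* followed only by digits, were taken from 27995 features listed in both single-cell libraries of cultured adipose stromal cells. None of the 39 was chosen by its level. One library came from inguinal white adipose tissue (iWAT, the subcutaneous fat of the groin) and the other from interscapular brown adipose tissue (iBAT, the thermogenic fat between the shoulder blades). In each, the stromal vascular fraction, which is the mix of non-adipocyte cells freed by collagenase, came from pooled wild-type C57BL/6N mice of 8 to 12 weeks per the labels (the methods of the study give a narrower range) and was grown to 80% confluency. Each library pools 4 cultures of its depot, left untreated or exposed for 48 h to 5.5 nM of FGF1, of FGF2 or of FGF8, as the labels have it. The sources differ on this, since the methods of the study list vehicle, FGF1 and FGF2 but no FGF8. The sample tags of single cells were not part of the matrices used here, so the treatments were not separated.

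Hox genes encode homeodomain transcription factors and lie in 4 clusters, HoxA to HoxD. Within a cluster the genes are numbered as paralogs, from 1 at the 3′ end to 13 at the 5′ end. Along the embryonic body axis, low paralog numbers are switched on first and reach furthest towards the head, and high numbers are used towards the tail and, in HoxA and HoxD, in the distal limb. Adult fibroblasts and adipose stromal cells keep much of the pattern of the body region they came from. The proteins bind DNA together with cofactors of the Pbx and Meis families, and trithorax and Polycomb proteins maintain the active and the silent state of the clusters.

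HoxA lies on chromosome 6 on the minus strand, HoxB on chromosome 11, HoxC on chromosome 15 and HoxD on chromosome 2, the last 3 on the plus strand (GRCm39, GENCODE M39). Of the genes in which the depots differed by 4-fold or more, 3 are shown first by the 250 bases upstream of the first base of their canonical transcript, 5′ to 3′, all plain reference sequence. *Hoxa10* (chromosome 6, 52208164 to 52217834) was far higher in iWAT. *Hoxa5* (chromosome 6, 52178734 to 52181567) and *Hoxd8* (chromosome 2, 74534959 to 74538297) were higher in iBAT. The *Hoxa10* window lies inside the annotated span of the gene, because longer transcripts start upstream of the canonical one. Capitals mark a match to TATAAA or to TGATTNAT, a composite site at which Pbx and Hox proteins bind side by side, searched on both strands.
Hoxa10 (chr6:52211920-52212169, minus strand): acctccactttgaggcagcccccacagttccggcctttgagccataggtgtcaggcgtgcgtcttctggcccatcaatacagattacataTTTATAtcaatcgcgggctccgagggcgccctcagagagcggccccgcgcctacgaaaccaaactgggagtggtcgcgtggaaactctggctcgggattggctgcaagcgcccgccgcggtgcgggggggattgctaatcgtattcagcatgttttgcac
Hoxa5 (chr6:52181568-52181817, minus strand): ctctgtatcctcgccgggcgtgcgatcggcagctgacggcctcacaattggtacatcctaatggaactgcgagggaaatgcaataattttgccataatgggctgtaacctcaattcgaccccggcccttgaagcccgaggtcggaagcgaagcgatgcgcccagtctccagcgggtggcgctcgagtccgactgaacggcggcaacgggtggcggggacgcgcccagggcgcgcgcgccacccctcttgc
Hoxd8 (chr2:74534718-74534967, plus strand): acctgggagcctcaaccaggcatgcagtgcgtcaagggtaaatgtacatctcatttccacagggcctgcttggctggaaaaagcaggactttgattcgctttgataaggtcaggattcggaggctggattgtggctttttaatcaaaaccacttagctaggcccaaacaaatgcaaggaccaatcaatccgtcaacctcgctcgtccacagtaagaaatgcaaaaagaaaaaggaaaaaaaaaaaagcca

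Of these 3 windows only that of *Hoxa10* held TATAAA, on the opposite strand and so printed as its complement, and none held TGATTNAT. Across the 39 Hox windows, 6 held TATAAA and 3 held TGATTNAT, against 9.39% and 2.16% of the windows of 18167 protein-coding genes. The 3 windows held 20, 28 and 6 CpG dinucleotides in the order printed, beside a median of 12 for the Hox genes and 10 for all genes. A match is a description of letters and not a binding site.

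The cells compared first were those with at least 2 UMIs (unique molecular identifiers, each standing for 1 captured RNA molecule) of *Pdgfra*, the receptor that marks stromal progenitors, and none of *Epcam* (epithelium), *Pecam1* (endothelium) or *Sox10* (Schwann cells). There were 9653 such cells in iWAT and 22581 in iBAT, of 29744 and 28215 that passed the cell filter. Their median depth was 18842 and 28054 UMIs. Of 10 stromal markers, the selecting *Pdgfra* among them, 9 reached a level of 10 CPM (UMIs scaled to a sum of 1e6 in the cells of a group) in both. The epithelial and endothelial lists had no member at 10 CPM in either, with *Epcam* and *Pecam1* at 0 by the rule. Of the Schwann cell, immune and mural lists, 1, 1 and 0 members reached 10 CPM in iWAT and 0, 2 and 1 in iBAT. The summed stromal list was 30107 CPM for iWAT against 13498 CPM for iBAT. The libraries also differed in sex-linked RNA, with *Xist* at 328 CPM for iWAT against 0.0535 for iBAT and the Y-linked *Ddx3y* at 1.16 and 81.0 CPM, and the labels give no sex. There was 1 library per depot, so depot, sex-linked RNA and everything else particular to a library cannot be told apart, and no test was made. Intervals in brackets are exact at 95% and cover counting error only. A level in a group of cells does not separate fewer cells with the RNA from less RNA per cell. The shares of cells further on also depend on the level and on depth, so they do not settle this.

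Both depots transcribed a broad set of Hox genes. In HoxA and HoxC that set reached further towards the 5′ end in iWAT, apart from *Hoxc13*. HoxB reached *Hoxb9* in both depots, and the HoxD sum was higher in iBAT. The summed level of all 39 genes was 827 CPM (823 to 831) for iWAT against 597 CPM (595 to 599) for iBAT. Genes at 10 CPM or more numbered 19 in iWAT and 17 in iBAT. Paralogs 9 to 13 gave 39.9% (39.6 to 40.1) of all Hox UMIs in iWAT and 8.11% (8.02 to 8.19) in iBAT. Paralogs 10 to 13 alone gave 23.5% and 1.19%. Paralogs 1 to 4 showed the opposite order, with 19.2% in iWAT and 34.2% in iBAT.

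The clusters were also used to different extents. HoxC gave 56.0% (55.8 to 56.3) of the Hox UMIs in iWAT and 26.8% (26.7 to 26.9) in iBAT. HoxB gave 30.1% and 45.8%, HoxA 13.1% and 20.5%, and HoxD 0.814% and 6.92%. In CPM the HoxB sum was nearly the same, 249 in iWAT and 273 in iBAT, so its change of share came largely from HoxC, at 463 and 160 CPM. HoxD, at 6.73 and 41.3 CPM, was higher in iBAT. HoxA was similar in sum, 108 and 122 CPM, but held different genes in the 2 depots.

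**Figure D1:**
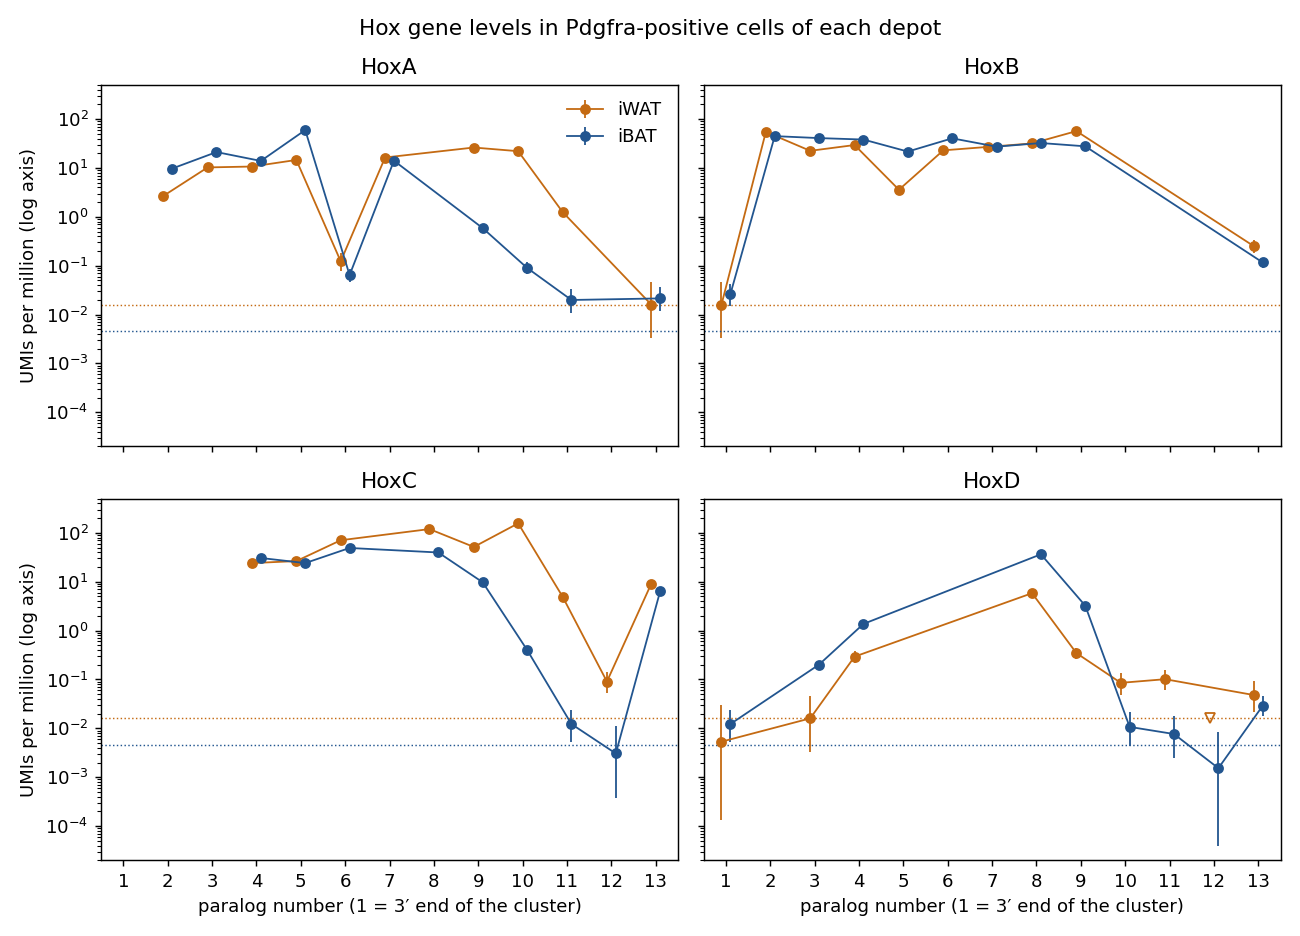
Level of 38 Hox genes (CPM, log axis) against its paralog number in Pdgfra-positive cells, 1 panel per cluster, iWAT in orange and iBAT in blue. Bars are exact Poisson 95% intervals, dotted lines mark the level of 3 UMIs in each library and the open triangle is a gene with 0 UMIs. The depots lie close in HoxB apart from *Hoxb5*, and *Hoxa9* to *Hoxa11* and *Hoxc8* to *Hoxc11* are higher in iWAT.

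Among the genes with at least 1 CPM in at least 1 depot, 28 Hox genes were compared, and 11 of them differed 4-fold or more. Over all 13632 genes compared in the same way, 4.11% did. Of the 11, 5 were higher in iBAT (background 2.08%) and 6 were higher in iWAT (background 2.02%). Most of the 11 were under 1 CPM in the other depot and so entered through the depot in which they were high, and the counts are a description. The median log2 ratio of iBAT over iWAT was -0.06 for the Hox genes and 0.05 for all genes.

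The 6 genes higher in iWAT were all paralogs 9 to 11 of HoxA and HoxC. *Hoxc10*, a 5′ gene used in the lumbar trunk and hindlimb field, was the most abundant Hox gene of iWAT with 157 CPM (155 to 158) and stood at 0.404 CPM (0.357 to 0.456) in iBAT. This ratio was 388 (344 to 440). *Hoxa10* stood at 22.0 CPM (21.4 to 22.7) and 0.0903 CPM (0.0687 to 0.116), a ratio of 244 (189 to 321). *Hoxc11* was measured at 4.96 CPM in iWAT, where it rested on 931 UMIs, and at 0.0122 CPM in iBAT, where it rested on 8. Its ratio of 406 (205 to 942) had the widest interval of the 3. The neighbouring genes differed by less. *Hoxa9* stood at 26.2 and 0.587 CPM (ratio 44.6, 40.2 to 49.6), *Hoxa11* at 1.26 and 0.0199 CPM (63.3, 36.3 to 121) and *Hoxc9* at 51.5 and 9.75 CPM (5.29, 5.12 to 5.46).

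Within HoxC the iWAT excess grew stepwise towards the 5′ end. *Hoxc4* was slightly lower in iWAT than in iBAT, at 24.1 and 30.6 CPM. *Hoxc5* (26.5 and 24.1 CPM) and *Hoxc6* (70.7 and 49.1 CPM) were 1.10-fold and 1.44-fold higher in iWAT. *Hoxc8*, a thoracic gene, was 3.01-fold higher (2.96 to 3.07), at 120 and 39.7 CPM. *Hoxc9* and *Hoxc10* then followed with the ratios given above. *Hoxc13*, the last gene of the cluster and a gene of hair follicles and nails, broke this order. Its levels were 9.12 CPM (iWAT) and 6.40 CPM (iBAT), only 1.42-fold apart (1.35 to 1.51), although *Hoxc12* beside it had 17 and 2 UMIs in all. In iBAT *Hoxc13* was thus the sole HoxC gene beyond paralog 9 at more than 1 CPM.

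HoxA changed from iBAT-high to iWAT-high across *Hoxa7*. *Hoxa5*, which patterns the neck, shoulder girdle and lung, was the most abundant Hox gene of iBAT with 59.6 CPM (59.1 to 60.2), against 14.6 CPM (14.04 to 15.1) in iWAT, a ratio of 4.09 (3.93 to 4.25). It lay just past the 4-fold line, and its log2 ratio of 2.03 became 1.99 with at least 3 *Pdgfra* UMIs, 1.93 after thinning to 10000 UMIs per cell and 1.99 with scaling by the median of ratios, so that 4 genes and not 5 passed under each of these. *Hoxa2*, at 9.72 and 2.67 CPM, was 3.64-fold higher in iBAT (3.33 to 4.00), just under the 4-fold line (its log2 ratio of 1.87 became 2.07 over all kept cells), and *Hoxa3* was 2.06-fold higher (1.97 to 2.16), at 21.2 and 10.3 CPM. *Hoxa4* (13.9 and 10.7 CPM) and *Hoxa7* (14.1 and 16.4 CPM) differed little. *Hoxa6* was hardly detected in either, at 0.0642 CPM (iBAT) and 0.123 CPM (iWAT), between neighbours with levels more than 100 times as high. Whether its RNA was captured as well as theirs was not tested.

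HoxB was the cluster most alike in the 2 depots. *Hoxb7* had 27.0 CPM (iWAT) and 27.3 CPM (iBAT), *Hoxb8* 31.8 and 32.4 CPM, and the intervals of both ratios held 1. The sign of both log2 ratios turned under some alternatives, which ranged from -0.02 to 0.20 for *Hoxb7* and from -0.01 to 0.13 for *Hoxb8*. *Hoxb2* (54.7 and 44.8 CPM) and *Hoxb4* (29.5 and 38.1 CPM) differed by less than 1.5-fold. *Hoxb3* (22.4 and 40.8 CPM) and *Hoxb6* (22.9 and 40.4 CPM) were 1.82-fold and 1.76-fold higher in iBAT. *Hoxb9*, the most 5′ active gene of the cluster, was 2.05-fold higher in iWAT (2.00 to 2.10), at 56.8 and 27.7 CPM. *Hoxb5* was the exception, at 3.58 CPM (3.32 to 3.86) for iWAT against 21.6 CPM (21.3 to 22.0) for iBAT, a ratio of 6.04 (5.59 to 6.53). It was lower than both *Hoxb4* and *Hoxb6* in either depot, and further below them in iWAT.

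HoxD was the one cluster in which every compared gene was higher in iBAT. *Hoxd8* stood at 36.5 CPM (36.0 to 36.9) in iBAT and 5.83 CPM (5.49 to 6.19) in iWAT, a ratio of 6.25 (5.88 to 6.65). *Hoxd9* stood at 3.23 and 0.347 CPM (9.32, 7.28 to 12.1) and *Hoxd4* at 1.37 and 0.293 CPM (4.67, 3.56 to 6.25). *Hoxd9* is therefore the only paralog 9 gene that was not higher in iWAT. The other 6 HoxD genes were under 1 CPM in both and were not compared. Of these, *Hoxd10* (16 and 7 UMIs in iWAT and iBAT) and *Hoxd11* (19 and 5) had higher CPM in iWAT. *Hoxd3* (3 and 132) was higher in iBAT. The intervals of the *Hoxd1* and *Hoxd13* ratios held 1, and *Hoxd12* had 0 UMIs in iWAT and 1 in iBAT.

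**Figure D2:**
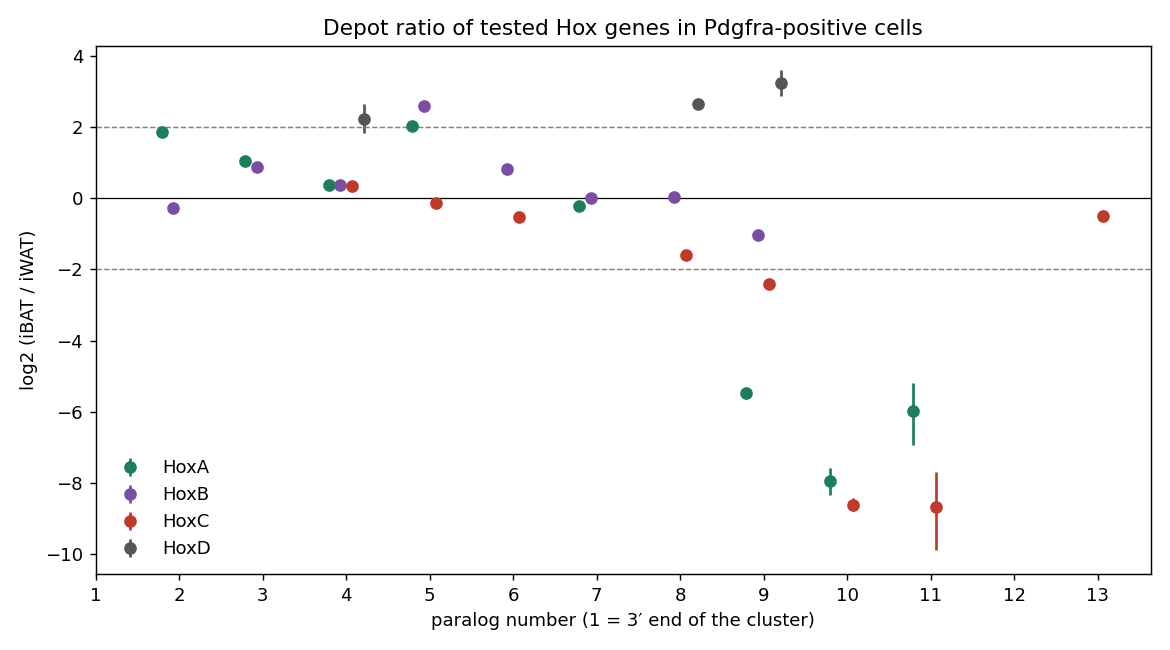
Log2 ratio of iBAT over iWAT for 27 of the Hox genes with at least 1 CPM in at least 1 depot, against paralog number and coloured by cluster, with conditional exact 95% intervals as bars. Dashed lines mark 4-fold in either direction. HoxA and HoxC fall steeply from paralog 9 on, HoxD stays above 0, and *Hoxc13* returns to near 0.

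The remaining 11 members were under 1 CPM in both depots. They were *Hoxa6*, *Hoxa13*, *Hoxb1*, *Hoxb13*, *Hoxc12*, *Hoxd1*, *Hoxd3* and *Hoxd10* to *Hoxd13*. The highest of these levels was that of *Hoxb13* in iWAT, 0.251 CPM.

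Strand was not given in the sources used here, and some members share their last exons with genes of the opposite strand. The last 500 exonic bases, where RNA is captured, lay wholly within exons of opposite-strand genes for *Hoxa3*, *Hoxa7*, *Hoxb2* and *Hoxb3*, and in part for *Hoxa2*, *Hoxa4*, *Hoxb6*, *Hoxc13* and *Hoxd11*. Levels of these genes are uncertain to that extent. For *Hoxa5*, *Hoxa9* to *Hoxa11*, *Hoxb5*, *Hoxc8* to *Hoxc11*, *Hoxd8* and *Hoxd9*, the share was 0%.

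The depot contrast was also seen in the shares of cells with a UMI of a gene, which follow in part from the levels. For this, 10000 UMIs were drawn at random from every cell (thinning), which left out 694 shallower Pdgfra-positive iWAT cells and no iBAT cell. *Hoxc10* then had a UMI in 73.7% (72.8 to 74.6) of the cells from iWAT and 0.354% (0.281 to 0.441) of those from iBAT, and in 86.3% and 0.988% before thinning. *Hoxa5* was found in 13.3% of iWAT and 38.97% of iBAT cells (21.8% and 66.0% before thinning), and *Hoxd8* in 5.48% and 29.2% (9.67% and 55.8%). *Hoxa10* was found in 19.0% and 0.0930%. The Ptprc-positive immune cells were set beside these as a comparison, though some blood cells are known to use Hox genes of their own and 24 of the 49 Hox UMIs of the iWAT group were HoxC: *Hoxc10* had a UMI in 4 of 44 thinned iWAT cells, 9.09% (2.53 to 21.7). It had none in 108 iBAT cells, which allows a share of up to 2.78% (3 of 108; the exact upper limit is 3.36%), too few cells to compare with the low iBAT share. Median depths of the immune cells before thinning were 11376 UMIs in iWAT and 20910 in iBAT. In iBAT stroma the 264 UMIs of *Hoxc10* lay in 223 iBAT cells, with at most 5 in a cell.

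A thinned Pdgfra-positive cell showed a median of 6 different Hox genes in iWAT (quartiles 4 and 7) and 4 in iBAT (3 and 6). Only 0.201% and 1.09% of these cells showed none, against 63.6% and 68.5% of the immune cells.

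Outside the stroma, the clearest epithelial pattern was a narrow block of 3′ HoxB genes in iWAT. Epcam-positive cells numbered 1802 in iWAT and 0 in iBAT, and all 9 epithelial markers reached 10 CPM in them. They also held 2 of 4 mural markers at 10 CPM or more, with a list sum of 80.1 CPM against 10.9 in stroma. Of 19 Hox genes at 10 CPM or more in these cells or in the stroma, 14 were 4-fold or more lower than in the Pdgfra-positive cells of the same library (background 3.37% of 9432 genes) and 0 were higher (background 5.20%). Here and in the cell groups that follow, a gene entered at 10 CPM in either group, and those called lower entered through their level in stroma, so the counts are a description. Of the 5 others, *Hoxb6* and *Hoxb9* were also lower, by less than 4-fold, and the remaining 3 lay side by side. *Hoxb2* stood at 41.1 CPM in epithelium and 54.7 in stroma (ratio 0.751, 0.700 to 0.805), *Hoxb3* at 23.8 and 22.4 CPM (1.06, 0.964 to 1.16) and *Hoxb4* at 39.6 and 29.5 CPM (1.34, 1.25 to 1.45). The low *Hoxb5* also had a ratio near 1 (1.02, 0.791 to 1.29), and from *Hoxb6* on the ratios fell to 0.286 or less. *Hoxb2* to *Hoxb5* together made 42.8% (41.4 to 44.1) of the Hox UMIs in epithelium and 13.3% in stroma.

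The other Hox ratios, 0.159 to 0.286, overlapped those of several genes of the stromal marker list. These were 0.186 for *Col1a1*, 0.172 for *Col1a2*, 0.193 for *Thy1* and 0.147 for *Dcn*, although *Pdgfra* was at 0 by the rule for these cells. The highest of the Hox ratios lay above them. *Hoxc10*, for example, had a ratio of 0.185 (0.170 to 0.200), with 29.0 CPM in epithelium. The part of stromal RNA in these levels was not tested. When *Sox10* was ignored, which raised the epithelial cells to 3744 and was decided after the values were seen, 16 of 19 were 4-fold or more lower (background 4.57%) and 0 were higher (background 5.46%). *Col1a1* then had a ratio of 0.134 and *Hoxc10* of 0.136, while *Hoxb2*, *Hoxb3* and *Hoxb4* kept 0.754, 1.06 and 1.34.

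**Figure D3:**
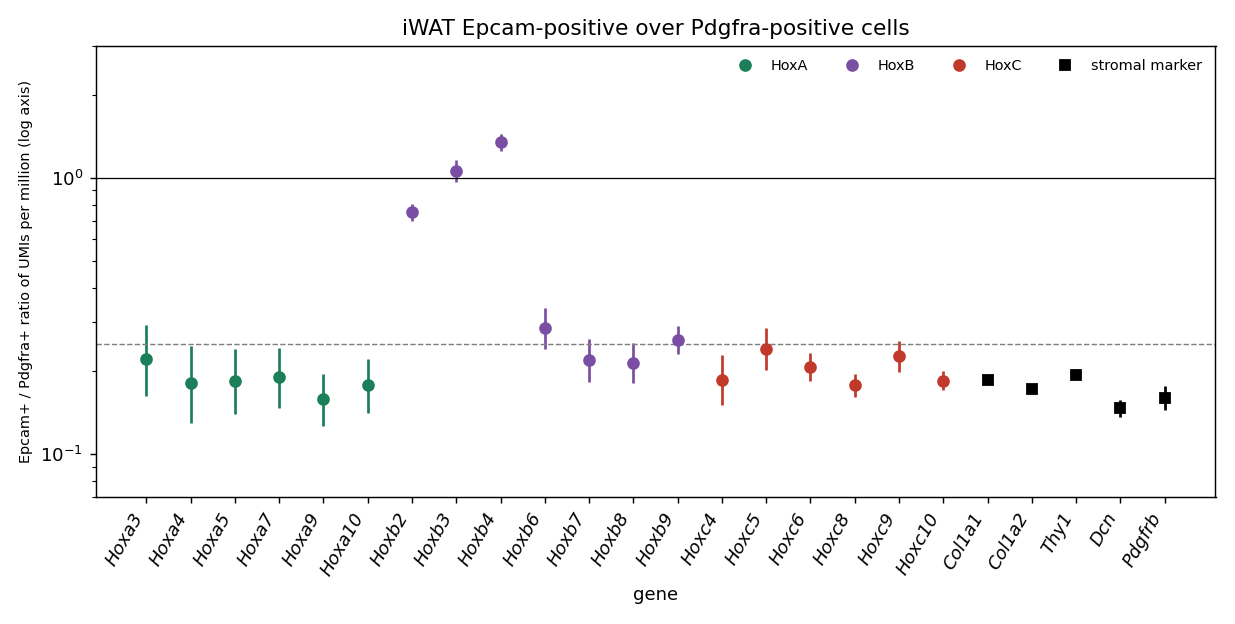
Ratio of CPM in Epcam-positive over Pdgfra-positive cells of iWAT (log axis) for the 19 Hox genes at 10 CPM or more in either group, coloured by cluster, and for 5 stromal markers (black squares). Bars are conditional exact 95% intervals and the dashed line marks 4-fold lower. *Hoxb2* to *Hoxb4* stand near 1, and the other 16 Hox genes lie at 0.159 to 0.286, with the stromal markers shown for comparison.

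In iBAT the marker-positive cells outside the stroma were few. The 121 Pecam1-positive cells, with all 8 endothelial markers at 10 CPM or more, nearly lacked HoxC. The HoxC sum was 10.2 CPM (6.67 to 14.95) against 160 CPM in stroma, and HoxC made 2.18% of their Hox UMIs. Of 18 Hox genes compared, 4 were 4-fold or more lower (background 6.20% of 9422 genes), and all were HoxC genes. *Hoxc8* stood at 1.96 and 39.7 CPM and *Hoxc6* at 5.10 and 49.1 CPM. *Hoxc4* had 1 UMI and *Hoxc5* had 6. HoxB was level with stroma, 272 and 273 CPM. Of the 17 genes at 10 CPM or more in stroma 0 were 4-fold or more higher. The background of 5.76% also counts genes that reached 10 CPM only in the Pecam1-positive cells. *Hoxd9*, at 17.7 and 3.23 CPM (ratio 5.47, 3.98 to 7.35), was compared only because of its level in the Pecam1-positive cells. *Hoxa7* (37.7 and 14.1 CPM) and *Hoxb7* (51.8 and 27.3 CPM) were 2.68-fold and 1.90-fold higher. *Hoxd10*, nearly absent from stroma at 0.0107 CPM, had 14 UMIs in these cells, 5.50 CPM, found in 6.61% of them before thinning.

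The 154 Myod1-positive cells, which carried all 5 skeletal muscle markers, had the highest share of HoxD among the iBAT cell groups. They also held markers of other cells, with 4 of 6 immune markers at 10 CPM or more (summed 292 CPM against 51.4 in stroma), Schwann cell markers at 88.8 against 13.2 CPM and mural markers at 83.5 against 25.3 CPM, and the part of these in the Hox levels was not tested. *Hoxd8* was their most abundant Hox gene with 68.5 CPM against 36.5 in stroma (ratio 1.88, 1.63 to 2.15), and *Hoxd9* stood at 17.3 CPM (5.35, 3.99 to 7.05), through which alone it entered the comparison. Of the other 17 genes 0 were 4-fold or more higher. The background of 7.59% also counts genes that reached 10 CPM only in the Myod1-positive cells. HoxD made 33.9% (30.6 to 37.2) of their Hox UMIs, against 6.92% in stroma and 18.0% in Pecam1-positive cells. In level, 91.1 CPM (80.6 to 103), HoxD was not apart from the 84.0 CPM (73.1 to 96.0) of the Pecam1-positive cells. Of 18 Hox genes compared, 8 were 4-fold or more lower (background 8.95%), among them *Hoxb9* at 1.66 CPM and *Hoxc8* at 2.99 CPM.

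The 481 Sox10-positive cells, with all 8 Schwann cell markers at 10 CPM or more, held a Hox sum of 146 CPM (138 to 155) and were dominated by HoxB, with 68.2% (65.5 to 70.9) of their Hox UMIs. *Hoxb7* was their most abundant Hox gene and alone equalled the stroma, at 28.5 and 27.3 CPM (ratio 1.05, 0.912 to 1.19). Of 17 Hox genes compared, 11 were 4-fold or more lower (background 5.69%) and 0 were higher (background 4.34%). *Hoxa5*, the leading Hox gene of iBAT stroma, stood at 3.08 CPM, 19.3-fold lower (12.99 to 30.2). *Col1a1* and *Col1a2* were not lower in these cells, with ratios of 1.37 for each. Of the 10 stromal markers, however, 6 reached 10 CPM in these cells against 9 in stroma, with list sums of 14176 and 13498 CPM.

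Some groups could not carry a description. The 26 Pecam1-positive iWAT cells also carried all 6 immune markers, and the 107 Sox10-positive iWAT cells carried 8 of the 9 epithelial markers, so neither was treated as a cell type. Of 19 Hox genes compared, 0 of the former (backgrounds 2.04% lower and 5.55% higher) and 11 of the latter, all lower (backgrounds 2.66% and 5.39%), were 4-fold or more away from stroma. In the Ptprc-positive cells 17 of 19 compared Hox genes in iWAT and 17 of 17 in iBAT were 4-fold or more lower than in stroma (backgrounds 10.7% and 11.9%), 0 were higher (backgrounds 8.77% and 7.54%), and their Hox sums were 58.6 and 41.8 CPM.

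**Figure D4:**
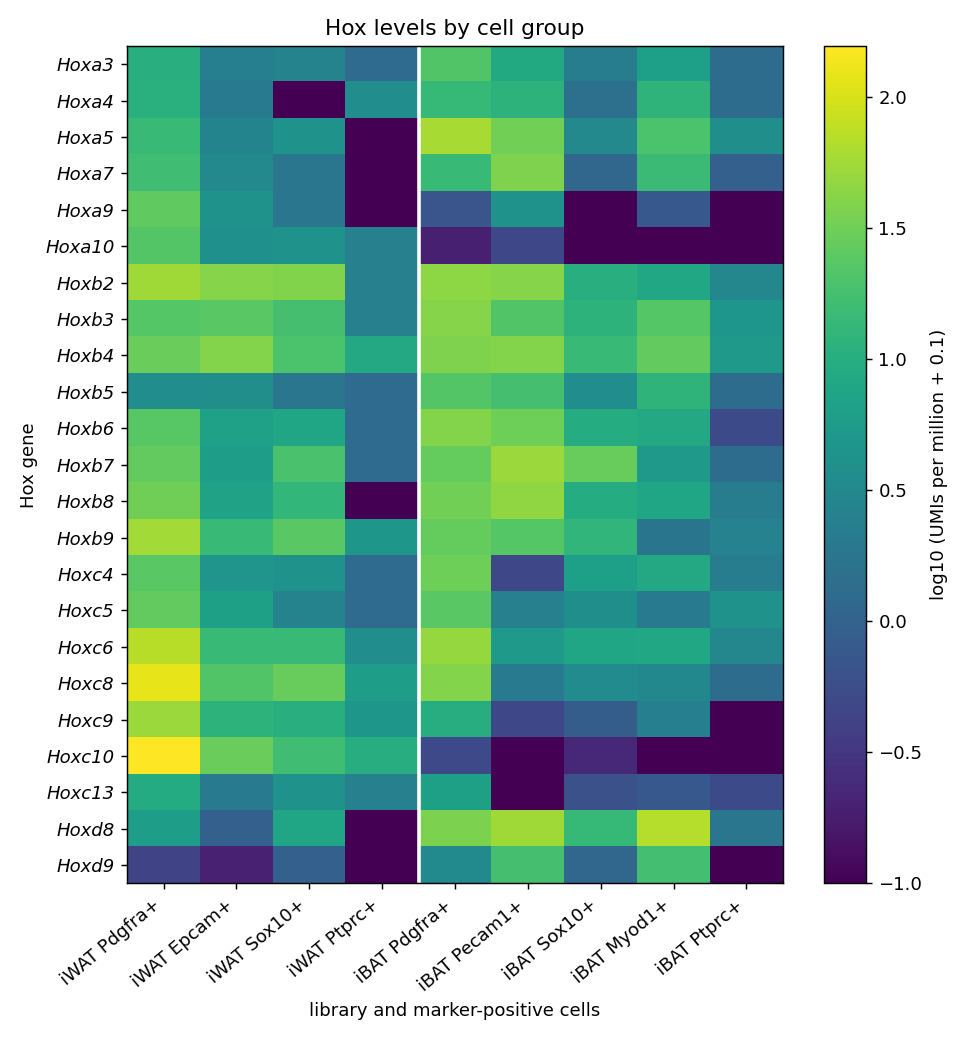
Level of 23 Hox genes (rows) in marker-positive cells (columns), coloured by log10 of CPM plus 0.1, iWAT left and iBAT right of the white line. Visible are the Hoxb2 to Hoxb4 block in iWAT Epcam-positive cells, the low HoxC of iBAT Pecam1-positive cells and the bright Hoxd8 of iBAT Myod1-positive cells.

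Partners and regulators of the Hox proteins and the genes beside the clusters gave counts near the 4.11% of all genes that differed 4-fold in either direction, so the counts show nothing particular to these lists. All 9 cofactor genes were compared and 0 differed 4-fold (background 4.11%). *Meis3* (9.998 and 11.1 CPM) and *Pbx3* (41.6 and 45.7 CPM) differed most among those at 10 CPM or more, in the order iWAT and iBAT. Of 29 regulators 26 were compared, and only *Rarb*, a retinoic acid receptor gene that is itself induced by retinoic acid, passed 4-fold (background 4.11%), with 42.5 CPM (iWAT) and 8.67 CPM (iBAT). *Kdm6a* and *Kdm6b*, whose proteins remove the Polycomb mark from histone H3, came next among those higher in iWAT, at 22.8 and 11.7 CPM and at 37.6 and 23.9 CPM, and *Kdm6a* is X-linked. The Polycomb genes *Cbx6* (66.6 and 104 CPM) and *Bmi1* (33.0 and 48.6 CPM) were higher in iBAT. Of the genes that flank the clusters, 0 of 12 compared differed 4-fold (background 4.11%), with *Calcoco1* near HoxC at 17.0 and 25.4 CPM the furthest apart and *Mtx2* near HoxD at 50.3 and 59.2 CPM.

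Noncoding RNAs within the clusters were low. Of 18 listed, 6 were compared and 2 were 4-fold or more higher in iBAT (background 2.08%): *Hoxb5os* (0.336 and 5.24 CPM), which lies opposite *Hoxb5* to *Hoxb9*, and *Hoxaas2* (0.416 and 4.60 CPM), opposite *Hoxa3*. *Hotairm1*, whose gene overlaps *Hoxa2* on the opposite strand, stood at 12.99 and 15.3 CPM. *Hotair*, transcribed within the 5′ part of HoxC, had 35 UMIs (iWAT) and 2 UMIs (iBAT), and *Hoxa11os* 175 and 17, all under 1 CPM.

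Hox levels were also compared within the stroma of each depot. Thinned Pdgfra-positive cells were split by a UMI of *Dpp4* (interstitial progenitors), *Icam1* (committed preadipocytes), *Fabp4* and *Adipoq* (adipocyte differentiation) or *Mki67* (proliferation). In iWAT, 0 of 19 Hox genes at 10 CPM or more differed 1.5-fold with *Dpp4*, *Icam1* or *Fabp4*. Few genes of any kind did, 0.632% higher and 0.689% lower with *Dpp4*, 0.520% and 0.0346% with *Icam1* and 0.613% and 0.254% with *Fabp4*, so the count is near the background. With *Mki67*, *Hoxc13* stood at 6.44 CPM in positive and 10.3 CPM in negative cells, and it reached 10 CPM only in the latter. None of the other 19 genes differed 1.5-fold (backgrounds 5.38% higher and 0.766% lower). In iBAT, 4 of 18 were higher in the 381 Dpp4-positive cells, beside 1.31% of all genes, and *Hoxc9* among the 4 reached 10 CPM only in these cells. *Hoxb9* stood at 45.4 CPM with and 26.6 CPM without *Dpp4* (ratio 1.71, 1.46 to 1.99), *Hoxc8* at 65.1 and 39.1 CPM (1.67, 1.46 to 1.89), *Hoxa7* at 22.8 and 13.7 CPM (1.67, 1.33 to 2.06) and *Hoxc9* at 14.2 and 9.24 CPM (1.53, 1.15 to 2.01). Without thinning only *Hoxb9* and *Hoxc8* passed 1.5-fold with *Dpp4* in iBAT, and *Hoxc13* did not with *Mki67* in iWAT (0.670, 0.608 to 0.738). *Hoxa7* was also higher in Fabp4-positive iBAT cells, at 18.5 and 11.1 CPM (1.67, 1.56 to 1.79), the 1 of 19 past 1.5-fold (background 1.06%). With *Icam1* and with *Mki67*, 0 of 18 passed 1.5-fold in iBAT (backgrounds 2.37% higher and 0.876% lower, and 5.71% and 1.52%). Furthest apart with *Icam1*, *Hoxd8* was 1.46-fold higher (51.3 and 35.2 CPM) and *Hoxb5* was lower (15.6 and 22.4 CPM, ratio 0.697). *Adipoq* marked 116 iBAT cells, and only 7 iWAT cells, which were not described further. In the iBAT cells 1 of 18 was lower, *Hoxd8* at 24.1 and 38.2 CPM (0.632, 0.420 to 0.914; background 6.91%). *Hoxc13* was the 1 of 18 higher (background 8.94%), at 11.2 and 6.29 CPM. It reached 10 CPM only in these cells, and the interval of its ratio held 1 (1.78, 0.946 to 3.06). Both counts are near the background. Without thinning neither gene passed 1.5-fold.

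Detection of Hox genes in the same cell was next compared with the product of their single shares, for genes at 20 CPM or more. In iWAT the ratio was near 1, with a median of 1.04 over 37 pairs of the same cluster and 1.02 over 68 other pairs. In iBAT it was 1.12 over 35 pairs of the same cluster and 1.01 over 70 others. The highest iBAT values were those of neighbours, *Hoxc6* with *Hoxc8* (1.37) and *Hoxb8* with *Hoxb9* (1.36), and in iWAT that of *Hoxa9* with *Hoxa10* (1.37). The lowest was *Hoxb5* with *Hoxc8* in iBAT: 601 of 22581 cells had both, 2.66% against a product of 4.02%, a ratio of 0.661.

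Cells with either gene of that pair differed in other Hox genes. In iBAT the ratio of *Hoxc8* over *Hoxb5* cells mostly rose with paralog number from *Hoxa2* to *Hoxa7* and from *Hoxc4* to *Hoxc9*. In HoxB it showed no such order. The pair was taken up after its value was seen, so the following is a description. Of the thinned iBAT cells, 4660 had *Hoxc8* without *Hoxb5* and 3299 had *Hoxb5* without *Hoxc8*, while 14021 of 22581 had neither. Before thinning these were 6366, 5674 and 7850 cells, and 2691 had both against 601 after it, so the division depends on depth. *Hoxa7* stood at 28.1 CPM in the *Hoxc8* cells and 6.61 CPM in the *Hoxb5* cells, a ratio of 4.26 (3.69 to 4.94). Among 6669 genes at 20 CPM or more in either set of cells this was the highest ratio. *Hoxc6* (72.5 and 34.3 CPM) and *Hoxc9* (15.4 and 7.24 CPM) were 2.11-fold and 2.12-fold higher. *Hoxc4* and *Hoxc5* had ratios of 1.05 and 1.46, and *Hoxa2*, *Hoxa3* and *Hoxa4* of 0.840, 1.01 and 0.945. The HoxB genes *Hoxb2* to *Hoxb4*, *Hoxb6*, *Hoxb8* and *Hoxb9* were lower, with *Hoxb6* at 33.8 and 53.1 CPM (0.636, 0.594 to 0.682) and *Hoxb3* at 34.8 and 53.3 CPM (0.654, 0.611 to 0.700). *Hoxb7*, at 25.9 and 27.3 CPM, had a ratio of 0.949 (0.869 to 1.04). *Hoxa5*, at 65.4 and 57.8 CPM, differed by 1.13-fold, and *Hoxd8*, at 33.7 and 40.3 CPM, was lower (0.835, 0.775 to 0.898). In iWAT, where 119 cells had *Hoxb5* without *Hoxc8*, *Hoxa7* went the other way, 16.1 and 25.2 CPM (0.637, 0.443 to 0.949), but without thinning the ratio was 0.877 and its interval held 1 (0.623 to 1.28). Without thinning the iBAT ratio of *Hoxa7* was 4.67 (4.36 to 5.02). As each library pools mice and treatments, cell states, animals and treatments cannot be told apart in this division.

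**Figure D5:**
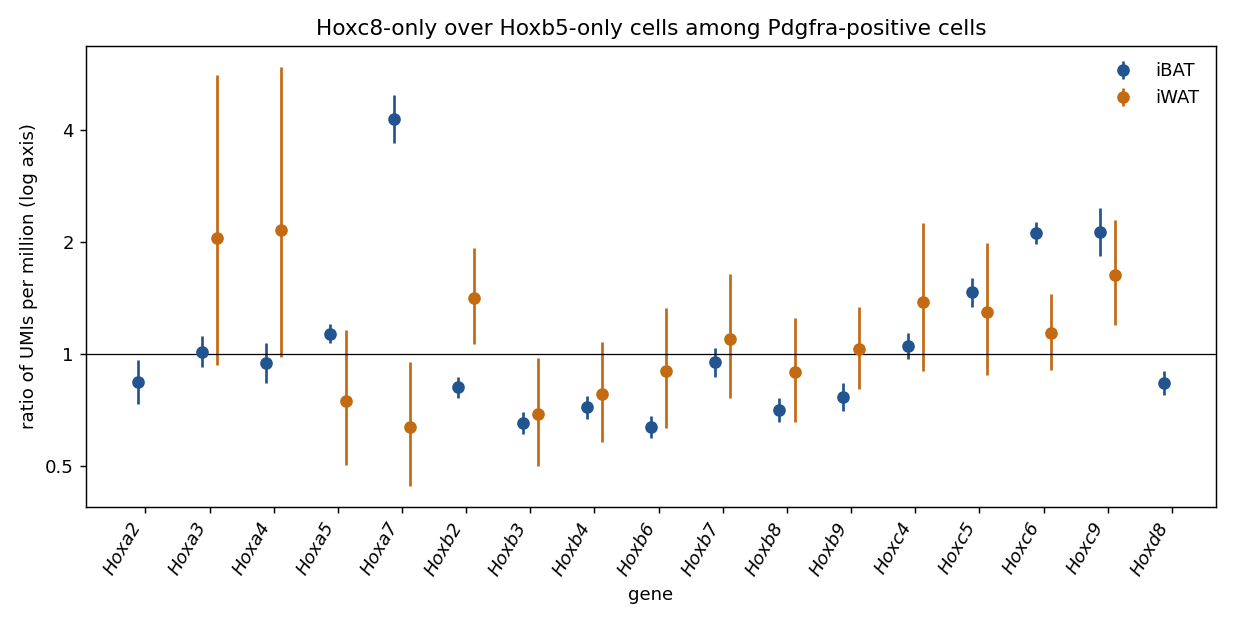
Ratio of CPM (log axis) in thinned Pdgfra-positive cells with *Hoxc8* and no *Hoxb5* over those with *Hoxb5* and no *Hoxc8*, for the other Hox genes at 10 CPM or more, iBAT in blue and iWAT in orange. Bars are conditional exact 95% intervals. In iBAT *Hoxa7*, *Hoxc6* and *Hoxc9* lie at 4.26, 2.11 and 2.12 and most HoxB genes lie under 1, while the wider iWAT bars mostly cross 1.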

How the data were processed

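BD Rhapsody whole-transcriptome libraries, 1 per depot, were read as raw counts of UMIs per gene and cell, as the authors deposited them. Reads had been aligned and annotated on a commercial cloud platform, and the submitters' processing notes name mm39 and Seurat 5.0.0. Annotation version, strand setting, UMI correction and handling of multiply mapped reads are not given in the sources used here. The libraries held 503611913 (iWAT) and 815235820 (iBAT) UMIs over 29962 and 28636 barcodes, with 8 cell numbers in common.

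Cells with over 200 and under 7500 genes and under 30% mitochondrial UMIs were kept. UMIs were summed over marker-positive cells and scaled to CPM, with exact Poisson intervals for levels, Clopper-Pearson intervals for shares and conditional exact intervals for ratios. RNA is captured at its poly(A) end, so levels of different genes were compared without a length correction. With 1 library per depot no p-value was computed. *Ptprc*- and *Myod1*-positive cells had at least 2 UMIs of that gene and none of the 4 other markers. Cells with a second marker were dropped and other doublets kept. The members and lists were chosen with earlier results of these data known. Hox genes at 10 CPM or more in stroma of either depot are named with values, and of other lists up to 5 genes at that level with the largest ratios. Other genes named were chosen after their values were seen. Calls and intervals were tested on simulated counts. These were Poisson draws without variation between cells or libraries, as the intervals assume, so they checked the computation only. Python 3.11.15, numpy 2.4.6, scipy 1.17.1 and Scrublet in scanpy 1.11.5 were used. Some items, among them 1 Hox gene, are not reported here.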

Additional observations from a re-analysis of the deposited data

Results flagged for a closer look

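Within Pdgfra-positive cells, 7 Hox splits by another gene pointed in opposite directions in the 2 libraries, with counting intervals that left out 1 on both sides. These differences between libraries were not tested, because each depot has 1 library. The search covered Hox genes at 10 CPM or more in both libraries and the splits by *Dpp4*, *Icam1*, *Adipoq*, *Mki67* and *Fabp4*. It was not run over all genes, so the count of 7 shows nothing particular to Hox genes. With over without *Dpp4*, the ratio of *Hoxb9* was 0.887 in iWAT and 1.71 in iBAT, that of *Hoxc8* was 0.946 and 1.67, and that of *Hoxc6* was 0.915 and 1.15. With over without *Fabp4*, the ratio of *Hoxb9* was 0.819 in iWAT and 1.17 in iBAT, that of *Hoxb2* was 0.932 and 1.13, that of *Hoxb4* was 0.884 and 1.07, and that of *Hoxc8* was 0.956 and 1.22. Dpp4-positive cells numbered 1626 of 8959 thinned cells in iWAT and 381 of 22581 in iBAT. The iBAT ratios of *Hoxb9* and *Hoxc8* in Dpp4-positive cells are the largest of these.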

How the results depend on the processing

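No paired analysis was possible because there is 1 library per depot, and for the same reason no library could be left out. The 5 Hox genes higher in iBAT became 4, without *Hoxa5*, with at least 3 *Pdgfra* UMIs, after thinning and with median-of-ratios scaling (backgrounds 2.01%, 2.19% and 2.02%). They became 6 over all kept cells (background 2.55%) and 6 of 38 with no filter on level (3.35%). At 2-fold they became 7 (background 5.82%) and at 8-fold 1 (1.03%). Among genes at 10 CPM or more they became 3 of 21 (background 1.22%) and at 50 CPM or more 1 of 7 (1.11%). The 6 higher in iWAT became 9 with no filter on level (background 2.99%), 8 at 2-fold (6.29%) and 5 at 8-fold (0.91%). They became 4 at 10 CPM or more (background 1.33%) and 2 at 50 CPM or more (1%), where fewer genes were compared. The share of Hox UMIs from paralogs 9 to 13 was 39.3% in iWAT and 8.33% in iBAT over all kept cells, 23.5% and 1.19% for paralogs 10 to 13, and 30.8% and 17.4% when genes at 1 CPM or more were counted in place of UMIs. In iBAT it was 8.24% with at least 1 *Pdgfra* UMI and other markers ignored, 8.23% with at least 1 and none of the other 3, 7.96% with at least 3 and 7.93% after thinning. Over all kept cells the clusters HoxA, HoxB, HoxC and HoxD gave 12.3%, 32.9%, 54.2% and 0.675% in iWAT, and HoxA and HoxB 20.1% and 46.3% in iBAT. At 2-fold, 2 regulators passed (backgrounds 5.82% higher in iBAT and 6.29% in iWAT). When 10 CPM was required, 0 cluster noncoding RNAs passed (backgrounds 1.22% and 1.33%). Without thinning the split counts were 0 for *Mki67* in iWAT, 2 for *Dpp4* in iBAT and 0 for *Adipoq* in iBAT. Thinned to 5000 UMIs, a depth chosen after seeing the data, 5 iWAT and 16 iBAT pairs were under 0.9 or over 1.2 times the product, against 1 and 10. The cause of these shifts was not tested. No gene past 4-fold turned its direction, while *Hoxb7* and *Hoxb8*, whose ratios were near 1, changed sign with median-of-ratios scaling, *Hoxb7* also with trimmed-mean scaling and *Hoxb8* also with at least 1 *Pdgfra* UMI and none of the other 3. A further 76 values stayed within their limits. Scrublet called 555 cells in iWAT and 0 in iBAT, so its alternative was not run, and the 8% of cells with the highest scores were left out instead, which was chosen after seeing the data. The depth of 1 UMI limits statements on genes under 1 CPM, and rescaling shifted the log2 ratios by 0.04 or 0.02.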

Other observations

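iBAT stroma cells with *Hoxc8* and those with *Hoxb5* also differed in genes outside the Hox clusters, and these were picked after their values were seen. Higher in the *Hoxc8* cells, and next after *Hoxa7* in the order of ratios, were *Gdf10*, a secreted member of the TGF-beta superfamily, at 40.3 and 13.4 CPM (ratio 3.00, 2.70 to 3.34), and *Zic1*, a zinc finger transcription factor of the dorsal trunk, at 32.7 and 12.2 CPM (2.69, 2.41 to 3.01). *Lgi2* (133 and 61.6 CPM), *Igfbp5*, an IGF-binding protein (127 and 59.2 CPM), and *Hp*, haptoglobin (33.3 and 15.7 CPM), followed, ahead of *Hoxc6*. Higher in the *Hoxb5* cells were *Thbs4*, a matrix thrombospondin (26.6 against 5.21 CPM, 5.10-fold), *Six2*, a homeobox gene (20.9 against 6.63 CPM, 3.16-fold), *Dlk1*, the preadipocyte inhibitor of differentiation (104 against 40.7 CPM, 2.56-fold) and *Cd34*, a progenitor surface marker (40.4 against 16.2 CPM, 2.49-fold).

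In all, the *Hoxc8* cells exceeded the others by 2-fold or more in 10 of 6669 genes (0.150%), with *Hoxa7* and *Hoxc6* among them, and the *Hoxb5* cells did so in 9 (0.135%). *Hoxc8* and *Hoxb5* themselves were not counted. In iWAT *Gdf10* was 2.00-fold higher in the *Hoxc8* cells (1.26 to 3.39), set against 119 cells with *Hoxb5* alone, and 1.56-fold without thinning. *Igfbp5* had a ratio of 1.25 there (1.08 to 1.46), *Lgi2* of 0.980 (0.786 to 1.24) and *Hp*, under 1 CPM in both sets of cells, of 0.883 (0.150 to 35.7). *Zic1*, at 0.181 and 1.68 CPM, had a ratio under 1 with an interval that held 1 (0.108, 0.0229 to 1.01). Of the genes higher in the iBAT *Hoxb5* cells, *Cd34* had 0.962 (0.322 to 4.72), *Dlk1* 1.64 (0.285 to 65.5) and *Six2* 0.646 (0.107 to 26.4) in iWAT, all under 3 CPM, and *Thbs4* had no UMI in the *Hoxb5* cells, so these iWAT ratios show no direction.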
